A study of Mus musculus with 30 samples.

Results

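Set 519 of a study of telomerase loss in mouse osteoclasts supplied 3 libraries of multinucleated cultures from 6-month-old Terc-/- mice (set 519 KO), and these were compared with 3 libraries of multinucleated cultures from 6-month-old wild-type mice (WT). The libraries were chosen by their titles, which number the replicates 2, 3 and 4 in both groups. They are 6 of the 30 libraries of the series. A further 3 multinucleated KO libraries of the same age whose titles carry no set number (unprefixed KO) and 3 libraries of 6-month WT cultures stopped after 2 days (2-day WT) served to place the set 519 libraries. All 4 groups are labelled C57BL/6J. Bone marrow-derived macrophages were grown in medium with 10% serum and differentiated with 2 cytokines, RANKL (100 ng/ml) and M-CSF (25 ng/ml), and all cultures but the 2-day ones were kept until large multinucleated cells appeared. The number 519 is not explained by the labels. Neither the generation of the Terc-/- line, the number of donor mice nor any pooling is given in the sources used here. Set 519 holds KO libraries only, so genotype and set cannot be told apart in this comparison.

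Osteoclasts resorb bone. They arise when macrophage precursors receive M-CSF, which keeps them alive, and RANKL, which through the receptor RANK switches on the transcription factors Fos and Nfatc1. These in turn induce fusion proteins, the acid-secreting proton pump and proteases such as cathepsin K. Terc is the RNA that telomerase copies into telomere repeats, and mice without it shorten their telomeres over generations. Short telomeres are known to activate p53, cell-cycle inhibitors and interferon signalling in several tissues.

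The set 519 KO libraries held 6067219 to 12222575 counts, against 16621042 to 19969599 in WT. At least 1 count was found for 17148 to 19217 genes in set 519 KO libraries and 20269 to 20610 in WT libraries. After all 6 libraries were thinned to the smallest total, detected genes lay between 17148 and 17555 in set 519 KO and between 17614 and 17783 in WT. Terc (ENSMUSG00000064796, chromosome 3, 96414437-96414859, minus strand, GRCm38) had 0 counts in all 6 libraries, which allows up to 0.1 CPM over the set 519 KO group and 0.0544 CPM over the WT group (3 counts, counting error only), so the genotype could not be checked in this polyadenylated RNA. The osteoclast label of the cultures was checked against defining osteoclast genes, and Acp5, Ctsk and Mmp9 were among the abundant transcripts of every library, as the values below show. Abundance alone does not check the multinucleated stage. The 2-day WT libraries also held 1020 to 1241 CPM of Ctsk and 1246 to 1449 CPM of Mmp9. Markers of T and NK cells, B cells, neutrophils, red cells and platelets, and mast cells each summed to under 11 CPM in every library of both groups. Of the 15310 genes tested, 3942 were higher and 3964 lower in set 519 KO by edgeR's quasi-likelihood test at an adjusted p under 0.05, which is 25.7% and 25.9% of the genes tested and 51.6% in all. Libraries of the groups did not overlap for 61.4% of genes. Counts of list members are read against these shares. For lists of well-expressed genes the nearer measure is the 64.7% called among the 10303 genes with at least 5 CPM in either group. The called shares of ribosomal protein genes (63.2%), telomere genes (63.0%) and p53 targets (69.7%) lay near it. Nothing in the labels says that replicates came from separate mice or cultures. The p-values rest on the spread between replicate libraries, estimated over all 30 libraries of the series, and this spread may be technical. Within 10 Mb on each side of Terc, 62.0% of the 187 genes with at least 5 CPM were called, against 64.7% of all such genes. Above a fold of 2, 733 genes were higher and 914 lower. With library totals in place of TMM scaling, all log2 fold changes moved by a median of -0.11 and the split became 3098 higher and 5066 lower.

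Fold changes moved with the GC content of the transcripts. Over the 10290 genes with at least 5 CPM in either group, Spearman's rho across genes between GC content and log2 fold change was 0.44, and genes are not independent replicates. The median log2 fold change was -0.24 in the bin of genes with 31.0 to 43.6% GC and 0.37 in the bin with 55.2 to 73.7% GC. Unprefixed KO against the same WT libraries showed the same direction, with medians of -0.18 and 0.36 in these bins, whereas set 519 KO against unprefixed KO gave -0.07 and -0.02. A fit that removed this trend library by library called 3424 genes higher and 3751 lower. Its values are given below beside the described genes whose call it changed and beside many of the list counts that it shifted.

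**Figure D1:**
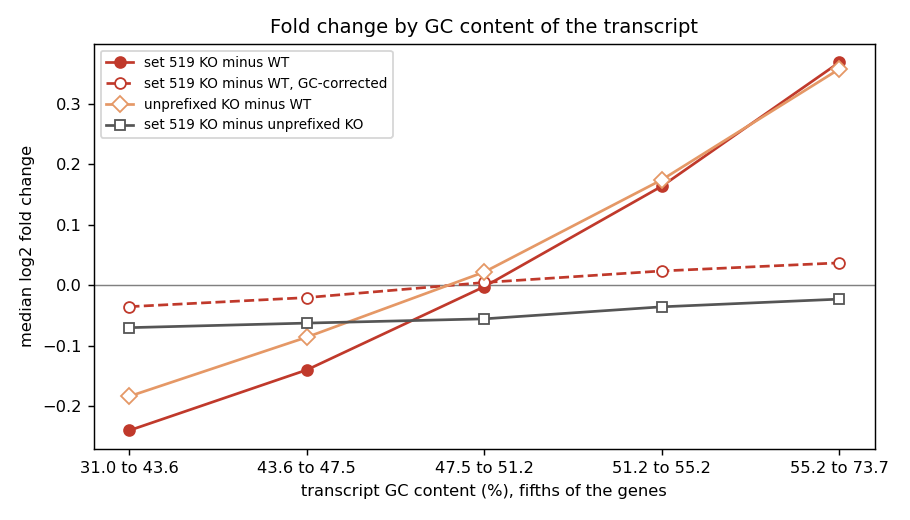
Median log2 fold change (vertical axis) in 5 equal bins of the genes ordered by transcript GC content (horizontal axis, %), for set 519 KO minus WT before and after the GC correction, unprefixed KO minus WT, and set 519 KO minus unprefixed KO. Both KO sets climb from -0.24 or -0.18 to 0.37 or 0.36 against WT; the corrected line stays between -0.04 and 0.04.

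The resorption machinery of set 519 KO cultures was at the level of mature osteoclasts and for most genes above WT. Of 21 listed genes for resorption and acid secretion, 20 were tested, 13 were higher, 5 lower and 2 did not pass, with a median log2 fold change of 0.23 (all genes tested, -0.0066). Their summed level was 33210 to 34480 CPM in set 519 KO and 26080 to 27790 CPM in WT. Integrin beta 3 (Itgb3, ENSMUSG00000020689, chromosome 11, 104608000-104670476), the adhesion receptor that anchors osteoclasts to bone, moved most. Itgb3 measured 464, 468 and 470 CPM in set 519 KO libraries, against 165, 152 and 154 CPM in WT libraries. No library of one group came near the other, and the log2 fold change was 1.57 ± 0.06 (SE, Itgb3 adjusted p = 2.45e-20).

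Matrix metalloproteinase 9 (Mmp9), a gelatinase secreted by osteoclasts, measured 13310, 13350 and 12590 CPM in set 519 KO and 9634, 9146 and 8363 CPM in WT (log2 fold change 0.53 ± 0.06, adjusted p = 6.01e-09). The tartrate-resistant acid phosphatase gene Acp5, the classical stain for these cells, measured 5970, 5956 and 5731 CPM in set 519 KO and 3874, 3919 and 3600 CPM in WT (0.63 ± 0.08, adjusted p = 4.24e-08; 0.37 after the GC correction). Both groups of values were separate for these genes, as they were for the collagen receptor Oscar, with 161 ± 5.91 CPM in set 519 KO and 98.9 ± 2.76 CPM in WT (SD, n = 3), and the calcitonin receptor Calcr, with 85.7 ± 5.45 and 54.2 ± 1.99 CPM in the same order of groups. Cathepsin K (Ctsk), the main collagen-degrading protease of osteoclasts, ran the other way without passing the test. Ctsk had 5856, 5845 and 5638 CPM in set 519 KO and 6550, 6471 and 6398 CPM in WT (log2 fold change -0.16 ± 0.08, adjusted p = 0.0746; 6.01e-06 when only these 6 libraries were fitted). Carbonic anhydrase 2 (Car2), which supplies the protons to be pumped, fell to 58.1, 60.9 and 66.0 CPM in set 519 KO, against 104, 97.8 and 99.8 CPM in WT (-0.70 ± 0.08, adjusted p = 3.32e-09).

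Ion transport genes were mixed. The chloride-proton exchanger Clcn7 averaged 1232 ± 7.52 CPM in set 519 KO and 847 ± 12.5 CPM in WT, and the osteoclast pump subunit Tcirg1 2574 ± 62.9 CPM in set 519 KO and 1722 ± 80.6 CPM in WT (Tcirg1 log2 fold change 0.58, and 0.22 after the GC correction). Plekhm1, needed for lysosome secretion at the ruffled border, was 1.77-fold higher. Of 18 V-ATPase subunits, the parts of the proton pump, 7 were higher, 3 lower and 8 did not pass, and after the GC correction 10 were higher and 0 lower. The membrane-sector subunits Atp6v0c and Atp6v0a1 were 2.14-fold and 2.10-fold higher. Atp6v0d2, the subunit enriched in osteoclasts, was lower (912 ± 16.0 CPM in set 519 KO and 1115 ± 30.5 CPM in WT, adjusted p = 0.000137), and its call was lost after the GC correction (log2 fold change -0.09, adjusted p = 0.182).

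**Figure D2:**
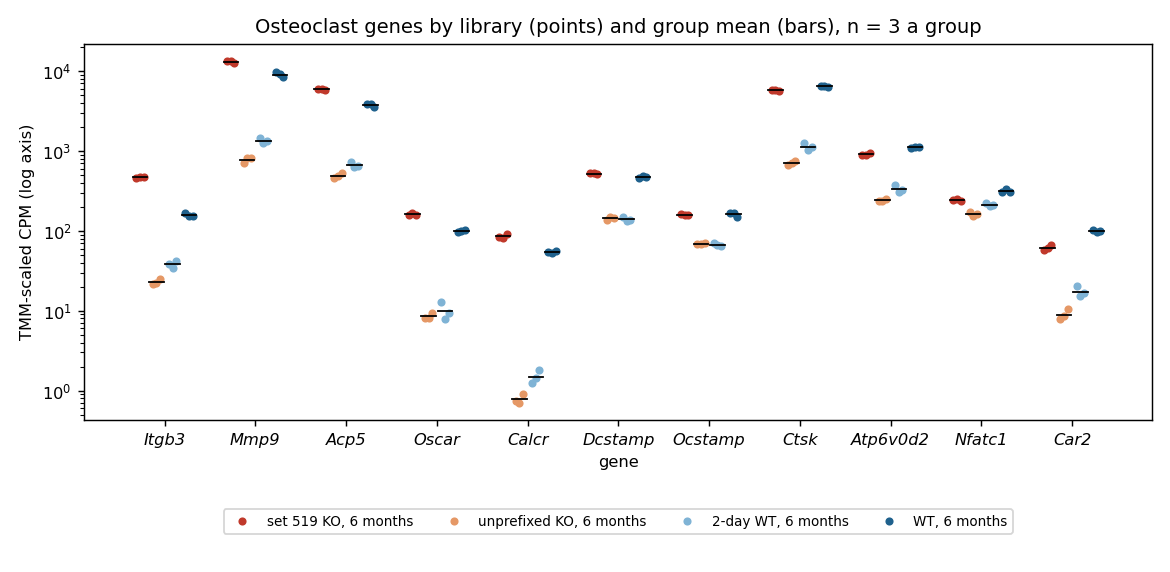
TMM-scaled CPM (log axis) of 11 osteoclast genes in each library (points) with group means (bars), from left to right for set 519 KO, unprefixed KO, 2-day WT and WT, all at 6 months, 3 libraries a group. Set 519 KO lies beside multinucleated WT, while unprefixed KO lies beside 2-day WT: Calcr averaged 85.7, 0.784, 1.5 and 54.2 CPM in these groups.

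The set 519 cultures stood far from the other KO cultures of the same age in these genes. Against unprefixed KO, 7511 genes were called in set 519 KO (49.1% of those tested), and all 20 tested resorption genes were higher, with a median log2 difference of 1.72. Calcr averaged 85.7 CPM in set 519 KO and 0.784 CPM in unprefixed KO, Mmp9 13080 and 781 CPM, and Itgb3 468 and 22.9 CPM. The comparison of unprefixed KO with WT shares the WT libraries with the main one, so its values are set beside it and not tested against it. That comparison called 60.0% of genes, and 0 resorption genes were higher and 19 lower, with a median of -1.80. Against 2-day WT, where 66.5% of genes were called, all 20 resorption genes were again higher in set 519 KO, with a median of 1.67.

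Upstream of these genes, the signalling list was mixed. Of 30 genes of RANK signalling and osteoclast transcription factors, 12 were higher and 13 lower. After the GC correction 7 were higher and 12 lower. RANK itself (Tnfrsf11a) had a log2 fold change of -0.16 ± 0.06 (adjusted p = 0.0276), and its call was lost after the correction (-0.10, adjusted p = 0.164). Fos, the AP-1 factor induced by RANKL, averaged 170 ± 4.70 CPM in set 519 KO and 320 ± 6.55 CPM in WT. Jdp2 averaged 287 ± 5.08 CPM in set 519 KO and 526 ± 21.9 CPM in WT. Nfatc1, the master factor of the lineage, measured 241, 251 and 239 CPM in set 519 KO and 307, 334 and 305 CPM in WT (-0.37 ± 0.07, adjusted p = 4.99e-05). The adaptors Tyrobp and Fcer1g, which pass the costimulatory signal that osteoclasts need, went up by log2 values of 1.26 ± 0.07 and 1.22 ± 0.10.

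Genes that restrain osteoclast formation were mostly higher. Of 14 listed, 11 were higher, 2 lower and 1 did not pass (median 0.64). Id2 and Id3, inhibitors of basic helix-loop-helix factors, averaged 139 ± 6.77 and 68.6 ± 0.928 CPM in set 519 KO, against 54.2 ± 0.928 and 28.9 ± 0.457 CPM in WT. Irf8, a macrophage factor and repressor, averaged 45.4 ± 0.316 CPM in set 519 KO and 25.7 ± 0.741 CPM in WT. The 2 lower genes were the deubiquitinase Cyld and osteoprotegerin (Tnfrsf11b), a decoy receptor for RANKL that stromal cells secrete. Tnfrsf11b averaged 1.61 ± 0.366 CPM in set 519 KO and 7.28 ± 0.935 CPM in WT. Of 16 fusion genes, 9 were higher and 4 lower. The fusion receptors Dcstamp and Ocstamp did not pass, with 520 ± 9.86 and 159 ± 1.41 CPM in set 519 KO and 471 ± 15.5 and 162 ± 10.3 CPM in WT. After the GC correction both passed, Dcstamp at a log2 fold change of 0.22 (adjusted p = 0.00441) and Ocstamp at -0.18 (adjusted p = 0.0294).

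Most macrophage markers were higher. Of 23 listed macrophage and monocyte markers, 22 were tested, of which 15 were higher, 1 lower and 6 did not pass (median 0.48). Their sum was 20470 to 20720 CPM in set 519 KO and 10930 to 11300 CPM in WT. The F4/80 gene Adgre1 measured 1460, 1422 and 1489 CPM in set 519 KO and 579, 542 and 542 CPM in WT (1.39 ± 0.05, adjusted p = 5.59e-21). Lysozyme (Lyz2) measured 14570, 14530 and 14710 CPM in set 519 KO and 7367, 7371 and 7584 CPM in WT. Toll-like receptor 2 (Tlr2) was 2.23-fold higher. The lower gene was Axl, a receptor for dying cells, with 14.1 ± 1.16 CPM in set 519 KO and 32.1 ± 2.25 CPM in WT. Unprefixed KO held more of these markers (29870 to 29990 CPM), and against it set 519 KO had 2 higher and 17 lower. In bulk cultures, a change in the share of a cell type and a change in RNA per cell cannot be told apart.

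The complement and tissue-macrophage genes were less uniform, with 8 of 18 tested higher, 3 lower and 7 that did not pass. The lower genes were F13a1 (log2 fold change -3.47), Vcam1 (-2.17) and Apoe (-0.47). The list median of 0.07 changed sign with library totals in place of TMM scaling (-0.04) and without a filter on low counts (-0.08). Trem2, a lipid-sensing receptor that signals through Tyrobp, measured 550, 546 and 537 CPM in set 519 KO and 199, 193 and 179 CPM in WT (1.51 ± 0.08, adjusted p = 1.25e-17). The complement chain C1qc averaged 349 ± 13 CPM in set 519 KO and 142 ± 12.8 CPM in WT. Among genes osteoclasts secrete that act on bone formation, 9 of 13 tested were higher and 2 lower. Complement C3, which osteoblasts respond to, measured 990, 976 and 962 CPM in set 519 KO and 231, 229 and 235 CPM in WT, a fold of 4.21 (2.07 ± 0.07, adjusted p = 2.4e-21). Insulin-like growth factor 1 (Igf1) was 2.20-fold higher.

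Lysosomal genes, which encode the acid hydrolases and membrane proteins of the degradative compartment and share control by MITF and TFE factors, were nearly all higher. Of 29 listed and tested, 27 were higher, 0 lower and 2 did not pass, Ctsh at -0.15 and Cd68 at 0.10 (median 0.53; 0.43 after the GC correction, with 25 higher). Their summed level was 40000 to 40270 CPM in set 519 KO and 24510 to 25060 CPM in WT. The aspartic protease cathepsin D (Ctsd) measured 4863, 4917 and 4802 CPM in set 519 KO and 1909, 1879 and 1750 CPM in WT (1.40 ± 0.07, adjusted p = 5.71e-18). The cysteine proteases Ctss and Ctsl averaged 1386 ± 8.12 and 2072 ± 24.9 CPM in set 519 KO, against 660 ± 21.3 and 1014 ± 30.8 CPM in WT. The beta-galactosidase gene Glb1, whose product is stained as a marker of senescent cells, measured 231, 249 and 241 CPM in set 519 KO and 149, 152 and 144 CPM in WT.

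Of the 29 lysosomal genes, 22 had a RefSeq promoter, and the E-box CACGTG, a binding sequence of MITF and TFE factors that reads the same on both strands, lay in the 250 bases before the start of 8 of them (36.4%), against 9.60% of the promoters of the genes tested here and 6.86% of all 27025 genes with a promoter in the table. A match describes letters, not binding. Mitf itself was lower (log2 fold change -0.61 ± 0.07, adjusted p = 1.71e-08), and its relative Tfec did not pass (-0.16, adjusted p = 0.057). The promoters of the 2 holders with the largest fold changes whose windows lie outside the annotated gene, Ctsl (chr13:64370521-64370770, minus strand) and Glb1 (chr9:114400828-114401077, plus strand), are shown 5′ to 3′ (GRCm38.p6, RefSeq) because most of this list was higher, with the E-box in capitals.
Ctsl: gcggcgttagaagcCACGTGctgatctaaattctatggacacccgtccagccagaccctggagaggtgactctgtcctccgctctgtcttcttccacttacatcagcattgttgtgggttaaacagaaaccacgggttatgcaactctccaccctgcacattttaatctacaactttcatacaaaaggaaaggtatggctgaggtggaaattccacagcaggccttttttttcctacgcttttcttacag
Glb1: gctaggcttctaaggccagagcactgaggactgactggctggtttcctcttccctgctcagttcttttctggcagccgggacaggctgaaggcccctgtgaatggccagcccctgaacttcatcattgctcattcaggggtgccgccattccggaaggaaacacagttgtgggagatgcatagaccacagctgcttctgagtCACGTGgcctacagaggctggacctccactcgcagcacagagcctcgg

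Interferon-stimulated genes formed the list with the highest median among those with at least 10 tested genes. Type I interferon acts through a complex that holds Stat2 and Irf9 on a short element in the promoters of antiviral genes. All 49 listed genes were tested; 42 were higher, 1 was lower and 6 did not pass (median 0.98; 1.08 after the GC correction, with 42 higher and 0 lower). Their sum was 3028 to 3084 CPM in set 519 KO and 1327 to 1575 CPM in WT. Irf7 (ENSMUSG00000025498, chromosome 7, 141262706-141266481), the factor that amplifies interferon production, measured 90.9, 92.1 and 88.1 CPM in set 519 KO and 22.4, 20.7 and 28.4 CPM in WT (1.92 ± 0.15, adjusted p = 8.62e-13). The surface protein gene Ly6a measured 54.0, 53.9 and 60.0 CPM in set 519 KO and 8.99, 8.85 and 8.47 CPM in WT (2.68 ± 0.12, adjusted p = 1.72e-18). Its level was not particular to KO cultures, as Ly6a averaged 53.2 and 44.1 CPM in the WT groups of 1 month.

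The effectors of the response followed. Oas3, a sensor that makes the activator of RNase L, measured 164, 170 and 177 CPM in set 519 KO and 45.6, 42.6 and 54.3 CPM in WT. Ifit1, which binds foreign RNA, measured 34.8, 30.6 and 32.9 CPM in set 519 KO and 12.7, 10.1 and 10.9 CPM in WT, and the ubiquitin-like Isg15 17.6, 16.9 and 18.4 CPM in set 519 KO and 6.42, 5.66 and 7.74 CPM in WT. The transducer Stat2 was higher by 1.55 ± 0.10 on the log2 scale. The lower gene, the guanylate-binding protein Gbp7 (-0.34 ± 0.13, adjusted p = 0.0286), lost its call after the GC correction (adjusted p = 0.35) and when WT replicate 4, set 519 KO replicate 2 or set 519 KO replicate 3 was left out (adjusted p = 0.146, 0.12 and 0.0999). Oas1a with Oas1g and Ifit3 with Ifit3b are near-identical pairs whose reads the counting may have split.

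Unprefixed KO had more interferon-stimulated RNA than set 519 KO: all 49 genes were lower in set 519 KO in the direct comparison, with a median log2 difference of -1.08. Isg15 averaged 17.6 CPM in set 519 KO and 74.0 CPM in unprefixed KO, and Irf7 90.4 and 261 CPM. Against WT, both KO sets carried the list upward (42 of 49 higher in set 519 KO and 49 of 49 in unprefixed KO). The interferon gene Ifnb1 had 0 counts in all set 519 KO and WT libraries. Of 16 tested sensors and interferon receptors, 12 were higher and 1 lower. The receptor chain Ifnar2 and the endosomal RNA sensor Tlr7 were higher by log2 values of 0.68 ± 0.07 and 0.70 ± 0.08.

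The core of the interferon-stimulated response element, GAAANNGAAA searched on both strands, lay in the 250 bases before the start of 19 of the 37 list genes with a RefSeq promoter (51.4%), against 3.36% of the promoters of the genes tested and 3.46% of all. The promoters of Oas3 (chr5:120777660-120777909, minus strand) and Stat2 (chr10:128270248-128270497, plus strand), chosen by the same rule, are shown 5′ to 3′ (GRCm38.p6, RefSeq) with the element in capitals.
Oas3: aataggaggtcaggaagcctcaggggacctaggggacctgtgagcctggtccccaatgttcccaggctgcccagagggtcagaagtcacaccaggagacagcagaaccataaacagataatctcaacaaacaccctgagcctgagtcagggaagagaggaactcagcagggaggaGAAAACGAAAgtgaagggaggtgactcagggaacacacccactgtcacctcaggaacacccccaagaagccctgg
Stat2: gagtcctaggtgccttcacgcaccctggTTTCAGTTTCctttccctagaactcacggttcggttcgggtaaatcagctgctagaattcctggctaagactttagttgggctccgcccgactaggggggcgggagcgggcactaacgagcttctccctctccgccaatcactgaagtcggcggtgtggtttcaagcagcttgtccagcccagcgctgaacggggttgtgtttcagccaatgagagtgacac

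**Figure D3:**
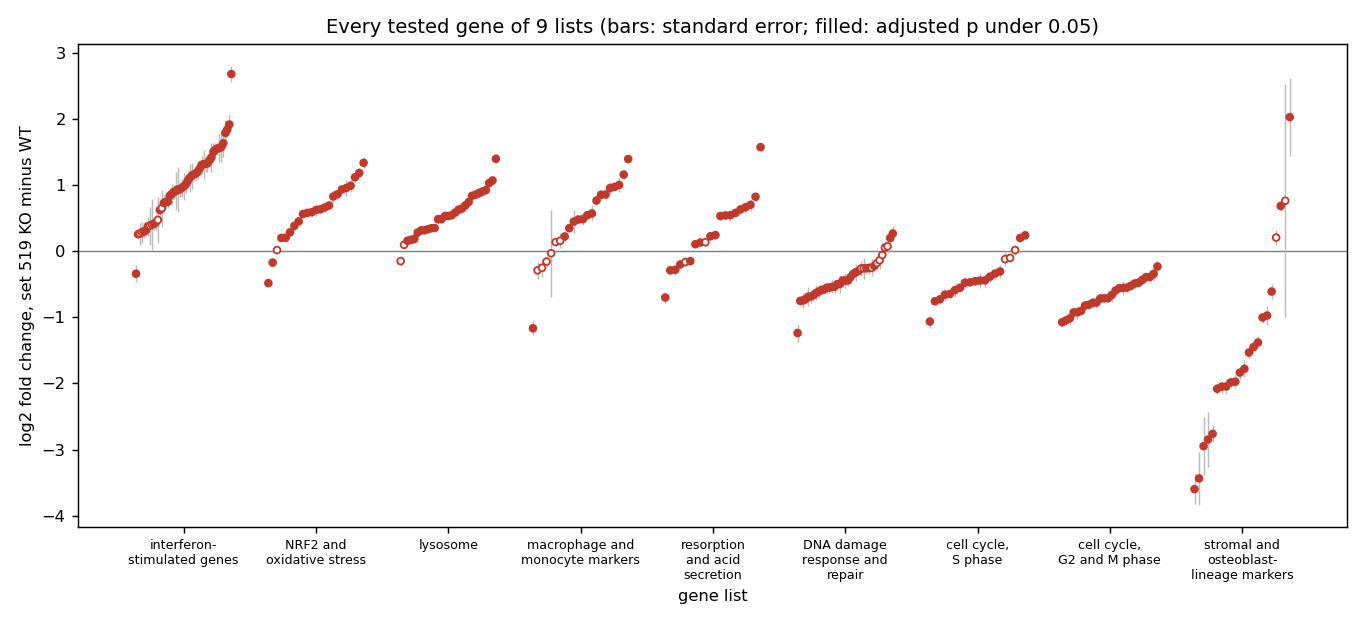
Log2 fold change of set 519 KO minus WT (vertical axis, bars: standard error) for every tested gene of 9 lists (horizontal axis), filled where the adjusted p is under 0.05. Interferon-stimulated, oxidative stress and lysosome genes lie mostly above 0, all 26 genes of G2 and M phase lie below 0, and stromal genes reach -3.60.

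Most proliferation genes were lower. Of 26 genes of G2 and M phase, the mitotic kinases, cyclins and spindle proteins, all 26 were lower, with log2 fold changes from -1.07 to -0.23 (median -0.69; -0.61 after the GC correction, with 25 lower). Their sum was 1471 to 1485 CPM in set 519 KO and 2431 to 2607 CPM in WT. Mki67, the proliferation antigen, measured 250, 255 and 264 CPM in set 519 KO and 521, 493 and 542 CPM in WT (-1.02 ± 0.09, adjusted p = 3.25e-11). The spindle checkpoint kinase Bub1 measured 43.4, 41.5 and 37.2 CPM in set 519 KO and 89.5, 80.1 and 86.9 CPM in WT, and topoisomerase 2 (Top2a) 204, 194 and 197 CPM in set 519 KO and 375, 350 and 387 CPM in WT. Of 20 S-phase genes, 15 were lower and 2 higher (median -0.45). The replication licensing factor Cdc6 averaged 10.8 ± 0.496 CPM in set 519 KO and 22.4 ± 0.609 CPM in WT, and the helicase subunit Mcm6 154 ± 8.79 CPM in set 519 KO and 261 ± 1.30 CPM in WT. The 2 that were higher, Pcna (0.20) and E2f1 (0.24), lost their calls with library totals (adjusted p = 0.152 and 0.134), and E2f1 changed sign after the GC correction (-0.11, adjusted p = 0.161).

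The direct comparison with unprefixed KO went the same way, with all 26 genes of G2 and M phase and all 20 S-phase genes lower in set 519 KO (medians -0.92 and -1.01). Against WT, 20 of 20 S-phase genes were higher in unprefixed KO (median 0.61) and 15 of 20 lower in set 519 KO. Cdc6 averaged 10.8 CPM in set 519 KO, 35.7 CPM in unprefixed KO, 44.0 CPM in 2-day WT and 22.4 CPM in WT. Stromal markers, described below, moved with these genes, with 18 of 22 lower in set 519 KO and sums of 1340 to 1416 CPM in set 519 KO against 3540 to 4414 CPM in WT, and their part in the lower level of proliferation genes was not tested.

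Of the 26 genes of G2 and M phase, 21 had a RefSeq promoter, and the cell-cycle homology region TTTGAA, the sequence through which the DREAM complex and B-Myb with FoxM1 act on mitotic genes, lay in 8 of them on either strand (38.1%), against 13.1% of the promoters of the genes tested and 18.3% of all. The promoters of Mki67 (chr7:135716380-135716629, minus strand) and Top2a (chr11:99024190-99024439, minus strand), chosen by the same rule, are shown 5′ to 3′ (GRCm38.p6, RefSeq) with the motif in capitals.
Mki67: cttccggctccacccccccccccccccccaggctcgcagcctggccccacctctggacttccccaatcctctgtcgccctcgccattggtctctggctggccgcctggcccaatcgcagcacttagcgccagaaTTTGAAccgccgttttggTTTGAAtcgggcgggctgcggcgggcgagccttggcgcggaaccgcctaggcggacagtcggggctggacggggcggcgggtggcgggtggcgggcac
Top2a: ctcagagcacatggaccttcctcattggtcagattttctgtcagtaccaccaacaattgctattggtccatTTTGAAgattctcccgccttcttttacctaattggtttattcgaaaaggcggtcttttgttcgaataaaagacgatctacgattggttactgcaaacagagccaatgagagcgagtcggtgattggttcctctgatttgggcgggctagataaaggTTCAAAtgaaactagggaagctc

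Most DNA repair genes and many telomere genes were lower. Of 37 genes of the DNA damage response, 27 were lower and 2 higher (median -0.44). The checkpoint kinase Chek1 measured 4.70, 6.92 and 6.58 CPM in set 519 KO and 14.3, 14.6 and 13.2 CPM in WT (-1.24 ± 0.14, adjusted p = 3.3e-09), and the Ku70 gene Xrcc6 averaged 21.5 ± 0.921 CPM in set 519 KO and 35.9 ± 0.565 CPM in WT. The 2 that were higher, Xrcc1 and Xrcc3, had small changes (0.20 and 0.27) that turned negative after the GC correction (-0.19 and -0.03). Of 28 listed telomerase and telomere genes, 27 were tested, 15 were lower and 2 higher (median -0.34). Terc itself was the one not tested. Dyskerin (Dkc1), which binds and stabilises Terc, measured 37.0, 42.7 and 37.6 CPM in set 519 KO and 92.4, 91.3 and 94.8 CPM in WT, well apart in the 2 groups (-1.26 ± 0.07, adjusted p = 3.14e-17). Gar1, a protein of the same particle, averaged 14.8 ± 1.82 CPM in set 519 KO and 24.1 ± 2.54 CPM in WT. The shelterin gene Acd and the telomerase-associated Tep1 were the 2 higher, at 0.60 ± 0.11 and 0.41 ± 0.06. Tert, the catalytic subunit, was near the detection limit, with 0, 0.173 and 0.0854 CPM in set 519 KO and 0.350, 0.471 and 0.0968 CPM in WT.

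The cell-cycle inhibitor Cdkn2a, which encodes p16 and p19Arf and is a marker of senescent cells, rose. Cdkn2a (ENSMUSG00000044303, chromosome 4, 89274471-89294653) measured 57.3, 55.5 and 58.9 CPM in set 519 KO and 14.5, 13.7 and 15.1 CPM in WT (1.99 ± 0.11, adjusted p = 4.45e-16). The deposited counts are per gene and do not part the 2 products. Cdkn2a was also above unprefixed KO, which averaged 37.7 CPM. The p53 target Cdkn1a (p21) measured 378, 376 and 377 CPM in set 519 KO and 209, 189 and 183 CPM in WT. Of 33 p53 targets, 15 were higher and 8 lower. The secreted Gdf15 averaged 9.52 ± 1.05 CPM in set 519 KO and 2.48 ± 0.227 CPM in WT, and the death gene Bbc3 (Puma) 19.3 ± 1.37 and 7.86 ± 0.374 CPM, while the p53 antagonist Mdm2 was 1.17-fold higher. Perp and Eda2r, also p53 targets, were lower by log2 values of -1.57 and -1.07. Lamin B1 (Lmnb1) and the histone methyltransferase Ezh2, both known to drop in senescent cells and both high in dividing ones, measured 38.5 ± 3.16 and 23.8 ± 2.20 CPM in set 519 KO, against 80.6 ± 2.31 and 44.3 ± 0.303 CPM in WT.

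Secreted inflammatory genes were mixed. Of 31 listed cytokines and components of the senescence-associated secretory phenotype, 30 were tested, 10 were higher, 4 lower and 16 did not pass, against a median of 1.78 with 26 higher in unprefixed KO. The chemokines Ccl3, Ccl4 and Ccl5 were higher by log2 values of 1.55, 1.74 and 1.46, and the nitric oxide synthase Nos2 averaged 15.2 ± 0.601 CPM in set 519 KO and 4.09 ± 1.30 CPM in WT. The cytokines Il6 and Il1b, at -1.81 and -1.95, did not pass.

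Most antioxidant and iron genes were higher. Of 23 targets of NRF2, the factor that answers oxidative stress, 20 were higher and 2 lower (median 0.62). Biliverdin reductase (Blvrb) averaged 183 ± 7.08 CPM in set 519 KO and 72.7 ± 5.54 CPM in WT, heme oxygenase (Hmox1) 858 ± 16.0 and 395 ± 30.9 CPM, and Osgin1 46.5 ± 2.76 and 20.4 ± 0.869 CPM. Glutathione reductase (Gsr) was lower at -0.48 ± 0.06. Of 14 iron genes, 9 were higher, 2 lower (Cp at -0.68, a call lost after the GC correction with adjusted p = 0.102, and Ireb2 at -0.39) and 3 did not pass. Ferritin heavy chain (Fth1), the iron store, measured 6943, 6912 and 6874 CPM in set 519 KO and 2805, 3209 and 2952 CPM in WT (1.21 ± 0.07, adjusted p = 1.5e-15). Ferritin light chain (Ftl1) averaged 4133 ± 211 CPM in set 519 KO and 2198 ± 160 CPM in WT; ferritin genes have processed copies whose reads may be mixed with theirs.

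Lipid genes moved in both directions. Of 18 LXR and lipid-handling genes, 11 were higher and 3 lower (median 0.50; 0.29 after the GC correction). The cholesterol exporter Abca1 averaged 257 ± 7.66 CPM in set 519 KO and 136 ± 10.9 CPM in WT, and Mylip, which degrades the LDL receptor, 24 ± 2.55 and 10.1 ± 0.492 CPM. The fatty acid desaturase Scd2 measured 19.1, 13.3 and 22.4 CPM in set 519 KO and 132, 120 and 159 CPM in WT (-2.86 ± 0.15, adjusted p = 6.33e-17), and Scd1 averaged 1.02 ± 0.620 and 6.21 ± 0.584 CPM. Of 25 cholesterol synthesis genes, 12 were higher and 4 lower.

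More genes of hypoxia and of protein folding were lower than higher. Of 28 glycolysis and hypoxia genes, 17 were lower and 3 higher (median -0.27; -0.42 after the GC correction, with 23 lower and 1 higher). The prolyl hydroxylase Egln3 measured 1.54, 1.73 and 1.37 CPM in set 519 KO and 21.1, 7.23 and 7.02 CPM in WT, so WT replicate 2 stood above the other WT libraries. The same library was highest in WT for hexokinase 2 (Hk2, 46.5, 42.7 and 43.9 CPM in set 519 KO and 119, 80.2 and 81.5 CPM in WT), and the groups did not overlap without it. The growth factor Vegfa averaged 24.8 ± 1.91 CPM in set 519 KO and 67.0 ± 15.1 CPM in WT. Of 26 genes of the unfolded protein and integrated stress responses, 12 were lower, 6 higher and 8 did not pass (16 lower and 5 higher after the GC correction). The chaperone Hsp90b1 averaged 438 ± 13.1 CPM in set 519 KO and 839 ± 16.4 CPM in WT and the serine synthesis enzyme Psat1 33.6 ± 3.95 and 75.9 ± 3.77 CPM, while the stress factor Atf3 was higher (107 ± 1.92 CPM in set 519 KO and 41.3 ± 1.91 CPM in WT).

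Transcripts of the mitochondrial genome took 3.05 to 3.07% of counts in set 519 KO and 4.07 to 4.30% in WT. Of 13, 8 were lower and 1 higher (median -0.39; -0.12 after the GC correction, with 5 lower and 3 higher), and these transcripts have a median GC content of 37.1%. Cytochrome b (mt-Cytb) averaged 4437 ± 35.9 CPM in set 519 KO and 6307 ± 241 CPM in WT. Of 74 nuclear genes of oxidative phosphorylation, 25 were higher, 13 lower and 36 did not pass. Ribosomal protein genes, many of which have processed copies, had 14 of 76 higher and 34 lower (12 higher and 40 lower after the GC correction).

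**Figure D4:**
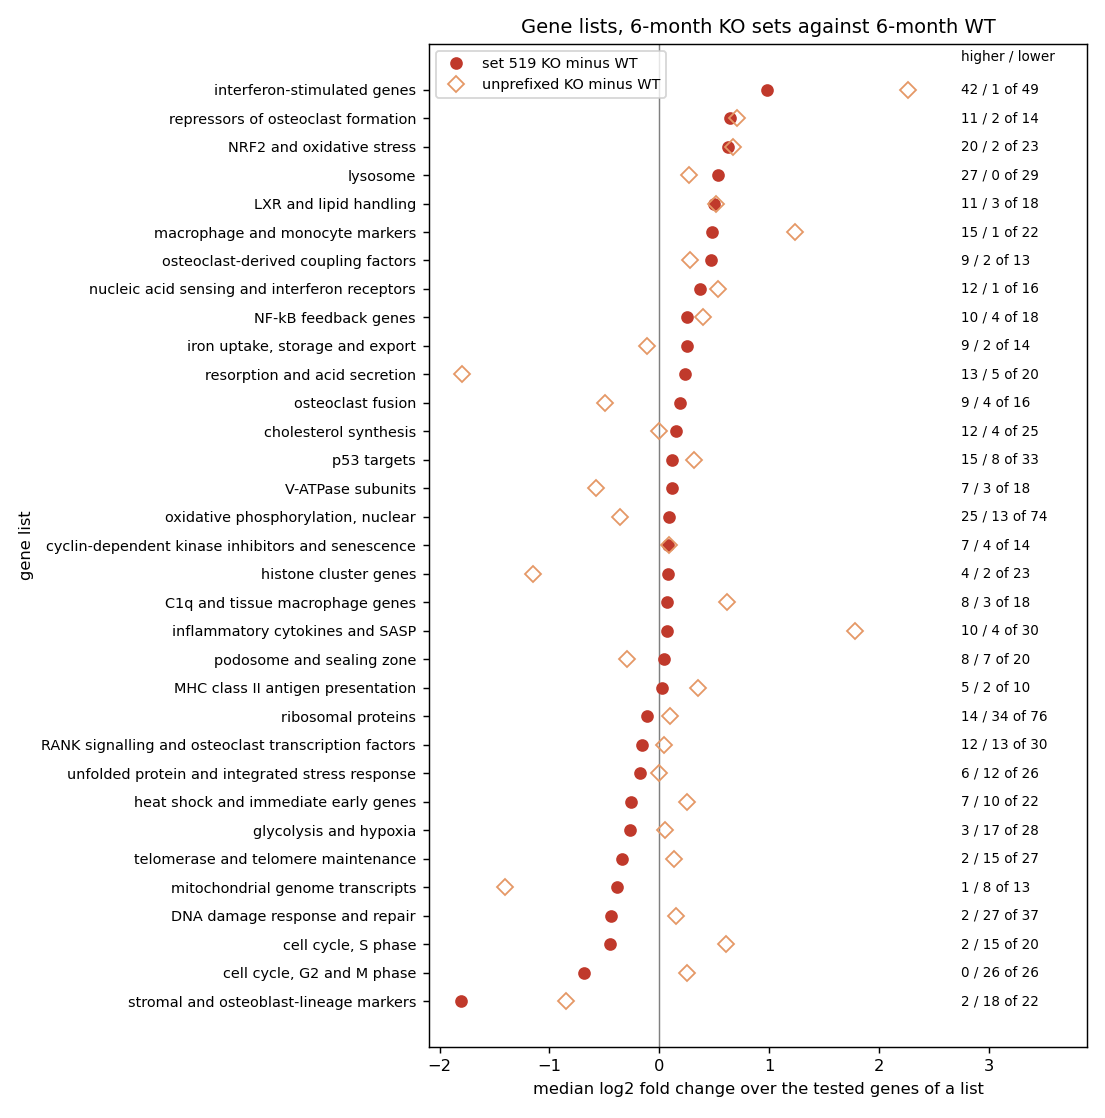
Median log2 fold change (horizontal axis) over the tested genes of each list with at least 10 of them (vertical axis), for set 519 KO minus WT (filled circles) and unprefixed KO minus WT (open diamonds), with the numbers higher and lower in set 519 KO at the right. Stromal markers (-1.81) and interferon-stimulated genes (0.98) are the ends of the set 519 order, and the 7 lists with medians between 0.02 and 0.09 change sign when library totals replace TMM scaling.

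Genes of other cells were uneven. Of 22 stromal and osteoblast-lineage markers, 18 were lower and 2 higher (median -1.81), and none was at 0 counts in all libraries of a group. Igfbp5, a growth factor-binding protein of stromal cells, measured 4.61, 5.01 and 4.53 CPM in set 519 KO and 66.8, 57.2 and 46.1 CPM in WT (-3.60 ± 0.23, adjusted p = 5.44e-15). The type I collagen gene Col1a1 measured 133, 150 and 141 CPM in set 519 KO and 427, 363 and 310 CPM in WT. The chemokine Cxcl12, made by marrow stroma, measured 1.90, 1.38 and 1.28 CPM in set 519 KO and 21.2, 21.7 and 7.89 CPM in WT, with WT replicate 4 below the other WT libraries. The list summed to 2105 to 2162 CPM in unprefixed KO and 11270 to 12060 CPM in 2-day WT. Of 10 endothelial markers, 7 were tested, 4 were higher and 0 lower; the defining markers Tek and Cldn5 had 0 counts in set 519 KO, while Eng and Vwf were 2.47-fold and 1.99-fold higher, and the list summed to 181 to 193 CPM in set 519 KO and 88.9 to 96.1 CPM in WT. Of 13 dendritic cell markers, 8 were tested, 3 were higher (Itgax, Bst2 and Ccl22) and 1 lower, and Flt3, Cd209a, Siglech, Dpp4 and Ccl17 had 0 counts in set 519 KO; the list summed to 246 to 272 CPM in set 519 KO and 105 to 121 CPM in WT. The part of these cells in the results above was not tested.

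The 12 largest increases and 12 largest decreases that passed the test, reached 5 CPM in a group and had no overlap of libraries mixed immune genes, stromal genes and little-studied loci. Cebpb, a factor of inflammatory macrophages, measured 21.8, 18 and 21.4 CPM in set 519 KO and 3.62, 4.29 and 3.53 CPM in WT. The aspartic protease Napsa averaged 18.5 ± 0.324 CPM in set 519 KO and 3.23 ± 0.459 CPM in WT, the hexose transporter Slc2a6 39.0 ± 1.79 and 8.08 ± 1.10 CPM, and the blood-cell factor Lyl1 18.8 ± 2.24 and 3.29 ± 0.489 CPM. Acpp, Serinc2 and Serpinb9b were 6.66-fold, 5.62-fold and 4.48-fold higher. Levels above WT of 6 months were not confined to KO cultures. In the WT groups of 1 month (titles without D1, then with D1), Cebpb averaged 30.9 and 8.14 CPM. Napsa averaged 14.2 and 5.74 CPM there, Slc2a6 37.8 and 16.8 CPM, and Serpinb9b 42.8 and 47.5 CPM. Lyl1, at 10.7 and 1.72 CPM, was above WT of 6 months in the first group alone. The pseudogene Gm7993 (chromosome 5, 95974240-95975623) measured 22.1, 22.1 and 21.8 CPM in set 519 KO and 0.0583, 0.262 and 0.290 CPM in WT (6.66 ± 0.27, adjusted p = 6.7e-20), and Gm15446 (chromosome 5, 109923400-109943936) 6.06, 8.47 and 6.75 CPM in set 519 KO and 0.0583, 0.105 and 0.0968 CPM in WT. Lrmda (chromosome 14, 22019712-23056085) and the X-linked pseudogene Gm6472 completed the increases at 12.8-fold and 12.1-fold, and reads of pseudogenes may come from their parent genes.

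Among the decreases, arginase 1 (Arg1, chromosome 10, 24915221-24927484), an enzyme of alternatively activated macrophages, measured 0.633, 0.692 and 0.427 CPM in set 519 KO and 31.0, 11.5 and 8.13 CPM in WT. WT replicate 2 was nearly 3 times the next WT library, and the set 519 KO libraries were far below all of them (Arg1 log2 fold change -4.87 ± 0.63, adjusted p = 5.67e-08). The lincRNA Gm42031 (chromosome 8, 85125872-85132289) measured 0.542, 0.346 and 0.256 CPM in set 519 KO and 12.2, 11 and 11.1 CPM in WT. Ogn, Serping1, Sulf1, Sfrp4 and Itga1, which connective-tissue cells express, averaged 0.406 to 1.34 CPM in set 519 KO and 5.77 to 14.8 CPM in WT. Cnbd2 and the phosphodiesterase Pde3a were 10.4-fold and 8.17-fold lower, and the unnamed gene ENSMUSG00000094114 (chromosome 13, 119606650-119610458) was lower at -3.07.

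**Figure D5:**
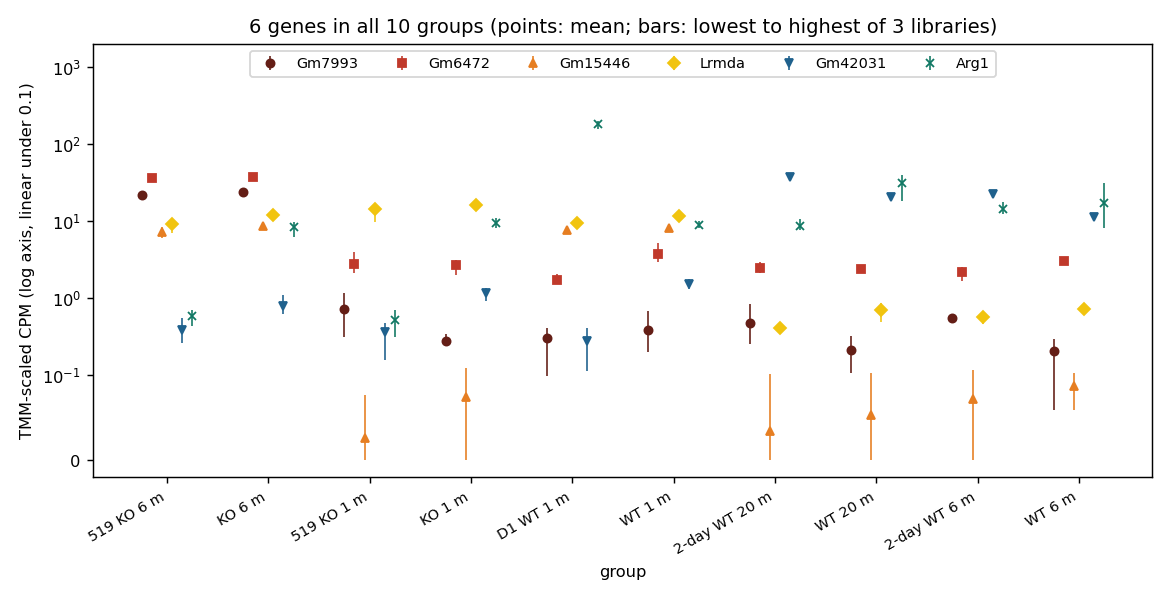
TMM-scaled CPM (vertical axis, log and linear under 0.1) of 6 of the most changed genes in all 10 groups of the series (horizontal axis); points are means and bars run from the lowest to the highest of 3 libraries. Gm7993 averaged 22.0 and 24.1 CPM in the KO sets of 6 months and at most 0.722 CPM in the other groups, while Arg1 was under 1 CPM in the set 519 groups alone.

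Set across the whole series, the 6 genes of the figure did not follow one grouping. Gm7993 averaged 22.0 ± 0.181 CPM in set 519 KO and 24.1 ± 0.793 CPM in unprefixed KO of 6 months, and 0.204 to 0.722 CPM in the other 8 groups (SD, n = 3). Gm6472 had the same pattern, with 36.6 and 37.0 CPM in these KO sets and 1.70 to 3.76 CPM elsewhere. Gm15446 averaged 7.09 CPM in set 519 KO and 8.61 CPM in unprefixed KO of 6 months, 7.67 and 8.14 CPM in the WT groups of 1 month, and under 0.1 CPM in the other 6 groups. Lrmda averaged 0.403 to 0.718 CPM in WT cultures of 6 and 20 months and 9.04 to 16.1 CPM in all KO groups and the WT groups of 1 month, and Gm42031 had the reverse pattern (11.4 to 37.6 CPM and 0.271 to 1.51 CPM). Arg1 averaged 0.584 CPM in set 519 KO of 6 months and 0.515 CPM in set 519 KO of 1 month, against 8.37 to 184 CPM in the other 8 groups. Many of the other most changed genes did share a grouping by their group means. For these, WT cultures of 6 and 20 months were apart from all KO groups and the WT groups of 1 month. Igfbp5, for example, averaged 25.6 to 86.4 CPM in WT cultures of 6 and 20 months and 0.696 to 7.42 CPM elsewhere. Lyl1, Serinc2, Serping1 and Sulf1 did not show this grouping.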

How the data were processed

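RNA was polyadenylated RNA from mouse cultures, sequenced on an Illumina NovaSeq per the labels' protocols. The authors deposited whole-number counts per gene, made with featureCounts 1.6.0 from STAR alignments over Ensembl 88 exons (GRCm38), per the file headers; the submitters' processing notes name HTSeq instead, and strand and multi-mapping settings are not given in the sources used here. Members and gene lists were chosen with earlier results of these data known.

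Symbols were found for 50376 of 50686 gene IDs. Groups came from the labels. edgeR 4.0.16 (R 4.3.3) fitted 1 coefficient per group over all 30 libraries with TMM scaling, after filterByExpr kept 15310 genes, and its quasi-likelihood test was adjusted by Benjamini-Hochberg over all genes at 0.05. CPM are TMM-scaled, with no pseudocount. Standard errors are the log2 fold change divided by the root of F. Named genes were the 12 largest changes in each direction among genes called, reaching 5 CPM and not overlapping, plus the largest called members of each list and a fixed set; other list members named here were chosen after their values were seen. The GC correction fitted a curve with 5 degrees of freedom to transcript GC content in each library, and was chosen after seeing the data. Other alternatives were other scaling, filters, sample sets, a fold test, thinning, left-out replicates, a replicate block and DESeq2 1.42.0. The fit was tested on simulated data. Promoters came from RefSeq (GRCm38.p6). Library totals lay between 6067219 and 23643742 in the 4 groups used, and limits for 0 counts cover counting error only. Replicates differed by more than sampling noise (chi-square per degree of freedom 1.28 to 4.24). Each library was counted as 1 sample, although this spread may be technical and does not show separate mice or cultures.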

Additional observations from a re-analysis of the deposited data

Results flagged for a closer look

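Some named genes were called in opposite directions against WT in the 2 KO sets of 6 months, and the difference between the sets was itself tested with edgeR's quasi-likelihood test. Both contrasts use the same WT libraries. Genes called in opposite directions were bound to differ between the sets, so these p-values add no support. The values below are log2 differences of set 519 KO minus unprefixed KO. The osteoclast genes were higher in set 519 KO. Calcr, the calcitonin receptor, differed by 6.76 (adjusted p = 3.17e-29). Itgb3, the osteoclast integrin chain, differed by 4.35 (adjusted p = 1.6e-31). Oscar, the collagen receptor, differed by 4.23 (adjusted p = 9.72e-26). Mmp9, the gelatinase, differed by 4.07 (adjusted p = 4.94e-31). Acp5, the acid phosphatase, differed by 3.58 (adjusted p = 3.17e-26). Other genes higher in set 519 KO had these values. Cdkn1c, the cell-cycle inhibitor p57, differed by 1.84 (adjusted p = 2.51e-08). Hist2h3c2, a histone H3 gene, differed by 3.56 (adjusted p = 5.85e-14). The call of Hist2h3c2 as higher in set 519 KO than in WT was lost after the GC correction (adjusted p = 0.0769). Hist1h1c, a linker histone gene, differed by 1.62 (adjusted p = 2.27e-18). Vwf, von Willebrand factor, differed by 1.33 (adjusted p = 2.27e-16). The remaining genes were lower in set 519 KO. Fos, the AP-1 factor, differed by -1.17 (adjusted p = 5.16e-18). Axl, the receptor for dying cells, differed by -1.73 (adjusted p = 3.52e-16). Gbp7, a guanylate-binding protein, differed by -0.62 (adjusted p = 0.000119). Cgas, the DNA sensor, differed by -1.2 (adjusted p = 5.36e-10). The call of Cgas as lower in set 519 KO than in WT was lost after the GC correction (adjusted p = 0.0658). Ier3, an early response gene, differed by -2.24 (adjusted p = 8.53e-15). Traf1, an adaptor of TNF receptors, differed by -0.67 (adjusted p = 1.13e-10). Chek1, the checkpoint kinase, differed by -1.54 (adjusted p = 1.15e-11). Cdc6, the licensing factor, differed by -1.74 (adjusted p = 7.9e-18). Mcm6, the helicase subunit, differed by -0.98 (adjusted p = 5.7e-18). Histone genes are near-identical copies in part, and their counts are uncertain.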

How the results depend on the processing

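Only the test against a fold of 1.5 moved the counts of called genes by more than 1.5 times: 1743 genes (925 higher, 818 lower) for set 519 KO against WT, 1704 against unprefixed KO, 4545 against 2-day WT, and 2868 for unprefixed KO against WT. Leaving out 1 replicate gave 7053 to 7506 calls (3535 to 3973 higher, 3262 to 3770 lower) for set 519 KO against WT, 6493 to 7531 against unprefixed KO, 9395 to 10241 against 2-day WT, and 8401 to 9209 for unprefixed KO against WT. Other settings gave 6622 to 8437 calls against 7906, and DESeq2 gave 7829. Of the 7906 genes, 5943 were still called in the same direction after the GC correction and 39 in the opposite one.

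Among 161 named genes, Ocstamp, not called, changed sign with thinned libraries (0.00256), and leaving out 1 replicate gave log2 fold changes of -0.0749 to 0.0404, above 0 without WT replicate 3, set 519 KO replicate 2 or set 519 KO replicate 3. After the GC correction Xrcc3 (-0.0284), Xrcc1 (-0.187), E2f1 (-0.113) and Pkm (-0.164) changed sign; the cause was not tested. The fit with a replicate block called 8437 genes, against 8375 without it in the same 6 libraries. Deviations from the group mean had correlations of -0.00688, 0.0446 and 0.13 between same-numbered libraries over 8776 genes. Set 519 KO replicates 3 and 4 correlated best with the WT library of their own number, and replicate 2 with WT replicate 3 (0.0607). With 3 libraries a group, these values cannot show whether the numbers pair the samples. Set 519 KO replicate 3 had the lowest depth, 6067219 counts, which limits low genes most.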

Other observations

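Lists not described above gave mixed counts in set 519 KO against WT. Of 22 heat shock and immediate early genes, 7 were higher and 10 lower, and Egr1, an early response factor, was lower at -2.29 ± 0.20 on the log2 scale. Of 18 NF-kB feedback genes, 10 were higher and 4 lower. Of 20 podosome genes, 8 were higher and 7 lower (5 and 9 after the GC correction). Of 10 tested genes of MHC class II presentation, 5 were higher and 2 lower (3 and 3 after the GC correction), while their sum was 304 to 316 CPM in set 519 KO and 536 to 581 CPM in WT. The medians of both lists changed sign between settings, so no direction is given for them. Of 14 cyclin-dependent kinase inhibitors and senescence genes, 7 were higher and 4 lower (4 and 5 after the GC correction). Of 23 tested histone genes, 4 were higher and 2 lower, and of 5 sex-linked genes none passed the test. The iron-binding lipocalin Lcn2 averaged 3.49 ± 0.0827 CPM in set 519 KO and 1.31 ± 0.0954 CPM in WT (SD, n = 3), and the ribosomal protein gene Rpl3 averaged 796 ± 15.3 CPM in set 519 KO and 979 ± 5.64 CPM in WT.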
